A study of Mus musculus with 11 samples.

Results

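Phosphoinositide 3-kinases (PI3 kinases) and the enzymes that undo their work were followed here through the open chromatin of their genes in naive CD4 T cells. The 9 genes were Pik3ca, Pik3cd and Pik3cg, which encode catalytic subunits, Pik3r1, Pik3r5 and Pik3r6, which encode regulatory subunits, Pik3ip1, which encodes an inhibitor, and Inpp5d and Inpp4b, which encode lipid phosphatases. All peaks that the deposited ATAC-seq table gives to 1 of these genes were taken, which are 112 of its 45508 peaks. Inpp4b holds 38 of them, Pik3r1 26, Pik3r5 11, Pik3cd 10, Inpp5d 9, Pik3cg 8, Pik3ip1 5, Pik3r6 3 and Pik3ca 2, and no member is without a peak. The table gives a peak to the gene with the nearest start site, which need not be the gene that the peak acts on.

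The cells came from spleen and lymph nodes of 3 untreated mice, and all of them carried the Tg(Nr4a1-EGFP)GY139Gsat transgene and the Foxp3tm1Flv targeted mutation on a C57/BL6 background. The transgene makes green fluorescent protein under control of Nr4a1, also called Nur77, which is a gene that T cells induce when their antigen receptor signals, and the Foxp3 allele makes a red reporter of regulatory T cells. CD4+ cells lacking the red reporter, with little CD44 on their surface, were divided by sorting into 4 populations along the reporter, which are A (Nur77-GFP low, Ly6C positive, n = 2 libraries), B (intermediate, Ly6C positive, n = 3), C (intermediate, Ly6C negative, n = 3) and D (high, Ly6C negative, n = 3). A library came from 10000 cells, which were tagmented for 1 h at 37 °C, and the cells received no stimulus. Library numbers are those of the mice, and population A lacks a library from mouse 2. Comparison of D with A asks what goes with strong against weak basal receptor signalling, but the reporter and Ly6C differ together in it and cannot be told apart. D against C and B against A change only the reporter gate, and C against B changes only the Ly6C gate.

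A PI3 kinase pairs a catalytic with a regulatory subunit and adds a phosphate to a membrane lipid to make PIP3, which recruits kinases such as Akt to the membrane. The p85 protein made from Pik3r1 stabilises the p110-alpha and p110-delta catalytic subunits, and p110-delta is the form best known for T cell receptor and CD28 signals. The p110-gamma subunit works instead with p101 (Pik3r5) or p84 (Pik3r6) downstream of G-protein-coupled receptors such as chemokine receptors. SHIP1 (Inpp5d) removes a phosphate from PIP3, INPP4B removes one from the lipid that SHIP1 makes, and PIK3IP1 is a membrane protein that restrains the kinase.

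Values are reads in a peak scaled to a common total, in the authors' unit rppm (RPM). The scaling totals were 9194084 and 9933354 reads in A, from 8736371 to 25061501 in B, from 5095885 to 35244031 in C and from 2597176 to 36859229 in D. The deepest library of every population came from mouse 3, and D replicate 1 was the shallowest. A peak of 10 rppm therefore rested on 26 reads in D replicate 1 and on 369 in D replicate 3. Summed over the 67 peaks given to 8 T cell genes (Cd3e, Cd3d, Cd3g, Cd247, Cd5, Cd2, Lck and Cd4), the libraries held 1213 and 1227 rppm (A), 1257 to 1312 rppm (B), 1205 to 1304 rppm (C) and 1207 to 1285 rppm (D). The B cell genes Ms4a1, Pax5 and Blk, the myeloid genes Csf1r and Lyz2 and the NK cell gene Ncr1 have no peak in the table. A peak is "called" where limma's adjusted p, over all 45508 peaks, was below 0.05, and a log2 change is of rppm + 1, which understates the ratio at low peaks. Bulk libraries cannot tell apart a peak that is open in fewer cells from one that is less open in each cell.

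Promoter sequence is shown for 3 members, as the results below set their start-site peaks beside the rest of the gene. At Pik3r5 and Pik3cg the peak over the start site was not called while peaks in the introns were, and Inpp4b was the only member whose start-site peak was called in D against A. RefSeq windows on GRCm38.p6 (mm10), from 250 bases before to 50 bases after the start, exist for 8 of the 9 genes (12 windows, none for Pik3r6), and each of the 3 below lies in a listed peak. They are chr11:68431875-68432174 (plus strand) for Pik3r5, chr12:32208421-32208720 (minus strand) for Pik3cg and chr8:81342312-81342611 (plus strand) for Inpp4b. Capitals mark matches, on either strand, to the GC box GGGCGG, the ETS core CGGAAG and the forkhead letters GTAAACA.
Pik3r5 promoter: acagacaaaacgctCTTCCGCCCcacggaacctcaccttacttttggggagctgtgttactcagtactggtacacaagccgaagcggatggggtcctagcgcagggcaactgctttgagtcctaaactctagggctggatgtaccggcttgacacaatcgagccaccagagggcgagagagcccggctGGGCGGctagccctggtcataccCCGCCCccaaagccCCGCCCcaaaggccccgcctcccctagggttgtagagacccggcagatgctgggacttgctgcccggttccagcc
Pik3cg promoter: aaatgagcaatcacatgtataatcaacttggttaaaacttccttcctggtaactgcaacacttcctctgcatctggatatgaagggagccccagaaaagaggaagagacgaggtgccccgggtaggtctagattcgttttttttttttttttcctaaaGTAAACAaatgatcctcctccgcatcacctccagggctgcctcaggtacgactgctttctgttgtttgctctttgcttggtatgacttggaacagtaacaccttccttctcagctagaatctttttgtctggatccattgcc
Inpp4b promoter: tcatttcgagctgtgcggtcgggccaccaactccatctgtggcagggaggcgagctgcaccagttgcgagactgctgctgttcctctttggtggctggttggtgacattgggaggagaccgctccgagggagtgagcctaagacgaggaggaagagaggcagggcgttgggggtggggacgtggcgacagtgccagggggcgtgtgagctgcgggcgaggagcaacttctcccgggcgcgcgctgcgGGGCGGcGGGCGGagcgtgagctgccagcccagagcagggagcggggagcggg

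The Pik3r5 window holds 4 GC boxes and 1 ETS core, of which the ETS core and the outermost GC box share bases. The Inpp4b window holds 2 GC boxes beside the start, and the Pik3cg window shown holds 1 forkhead match and no GC box. Pik3cg has another RefSeq window in the same peak (chr12:32208610-32208909, minus strand), which is not printed. That window is 40.7% G and C and holds none of the letters searched, the forkhead letters included. Among 32851 mouse promoter windows of the same length, 35.7% hold a GC box, 16.9% an ETS core and 3.65% the forkhead letters. The AP-1 letters TGANTCA, the Runt letters TGTGGT and the Nr4a response element AAAGGTCA, found in 7.81%, 16.8% and 1.51% of those windows, are not in the 3 windows shown. G and C make up 62% of the Pik3r5 window, 68.3% of the Inpp4b window and 44% of the Pik3cg window, against a median of 52.7%. A match of letters says nothing about whether a factor binds there.

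In D against A, 28 of the 112 member peaks were called by limma, 17 higher and 11 lower in D, against a background of 12.4% of all peaks called (8.7% higher and 3.74% lower). The lower calls sat almost wholly at Pik3r5, where 9 of 11 peaks were called lower and none higher. The higher calls sat at Inpp4b (9 of 38 peaks), Pik3r1 (4 of 26, beside 1 lower), Pik3cg (2 of 8), Pik3ca (1 of 2) and Inpp5d (1 of 9). No peak of Pik3cd or Pik3ip1 was called. With the mouse as a block 21 were called higher and 16 lower (background 12.5% and 8.79%). The median log2 change over the 112 peaks was -0.01, and over all peaks -0.04. Without regard to the test, every D library lay above every A library at 26 member peaks and below at 24, where the background shares were 19.3% and 18%.

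**Figure D1:**
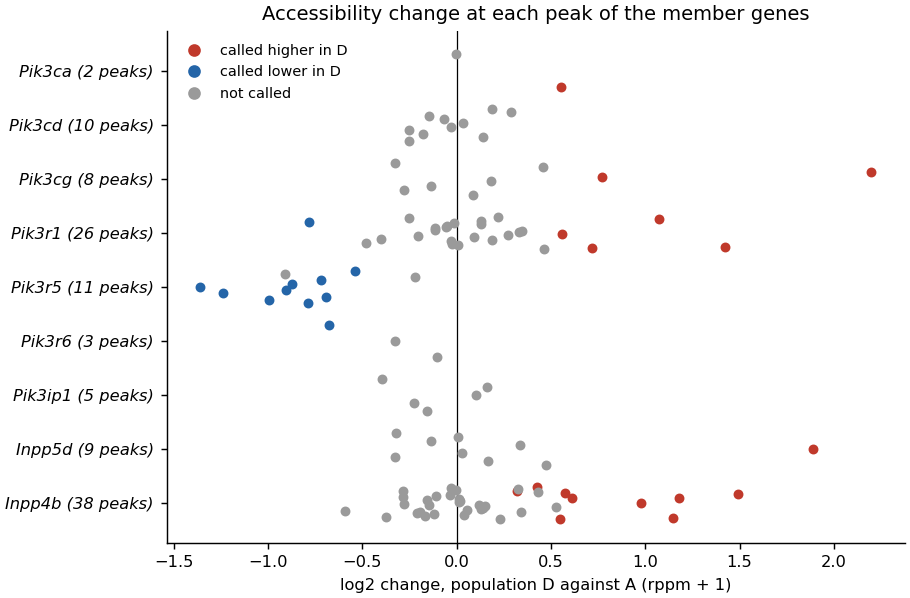
Log2 change of accessibility in population D against A (x axis, of rppm + 1) for each of the 112 peaks (points, spread vertically for legibility) given to the 9 genes (rows). The 11 peaks of Pik3r5 all lie left of 0 and 9 of them were called lower, whereas the called peaks of Inpp4b, Pik3cg, Pik3ca and Inpp5d all lie right of 0.

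Of the 17 peaks called higher, 12 were annotated to introns, 4 to intergenic sequence and 1 lay within 1 kb of a start site, and of the 11 called lower 9 were intronic and 2 intergenic. Among the 112 peaks 8.04% are centred at most 1 kb from a start site, and 26.8% of all peaks in the table are.

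Among the catalytic subunits, Pik3cg gave the largest increase of any member peak. A peak of 222 bases in its intron 2, 4.44 kb inside the gene (chr12:32203790-32204011), held 5.01, 3.49 and 4.56 rppm in D, against 0.218 and 0.101 rppm in A. B had 0.223, 0 and 0.279 rppm and C had 0.196, 1.54 and 0.624 rppm, so that the D libraries stood apart from all 8 others. Every peak in the table reaches 1 rppm in at least 3 libraries, and here only C replicate 2 reached it outside D. The peak is therefore listed only because it is open in D. Its separation, ratio and p are given as a description of a peak that entered the table in this way. The log2 change of D against A was 2.20 ± 0.26 (SE, limma adjusted p = 6.73e-05), and of D against C 1.64 (adjusted p = 0.000748). The A values are 3 reads in all, against 205 in D, of which 168 came from D replicate 3. Pooled over libraries, the ratio per scaling total was 28.2, with an exact 95% interval of 9.52 to 138 that covers counting error only.

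Another Pik3cg peak, 1.28 kb inside the gene, held 15.4, 11.5 and 12.3 rppm in D, against 7.07 and 7.35 rppm in A (log2 change 0.77 ± 0.17, limma adjusted p = 0.00878). This call is lost without A replicate 1 (adjusted p = 0.0832) or A replicate 3 (0.0652), and the count of Pik3cg peaks called is then 1. The peak over the start site, which holds the promoter window printed above, averaged 28.9 ± 1.14 rppm in D and 25.4 ± 2.42 rppm in A (SD, n = 3 and 2). Its log2 change of 0.18 was not called (limma adjusted p = 0.378). The other 5 Pik3cg peaks had log2 changes of -0.33 to 0.46, and none was called. A fit with the mouse as a block called 1 of them higher, the peak listed 39.4 kb from the start, which is named here after its values were seen (14.7 rppm in D and 10.5 rppm in A, limma adjusted p = 0.00792 with the block and 0.327 without it). Summed over all 8 peaks, Pik3cg held 107, 102 and 106 rppm in D, against 90.7 and 84.2 rppm in A.

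Pik3ca, which encodes the broadly expressed p110-alpha, has only 2 peaks under its name. The peak listed 16.0 kb before a start (chr3:32419765-32420456), which lies within the RefSeq span of the gene, held 15.0, 11.2 and 10.8 rppm in D, against 7.83 and 8.15 rppm in A. Its log2 change was 0.55 ± 0.16 (limma adjusted p = 0.0315), and the call is lost without D replicate 1 (0.0733), A replicate 1 (0.194) or A replicate 3 (0.146). The peak over the RefSeq start of Pik3ca is listed under the neighbouring gene Zmat3, and averaged 88.4 ± 6.48 rppm in D and 92.1 ± 5.76 rppm in A (SD, n = 3 and 2; adjusted p = 0.821).

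Pik3cd, which encodes p110-delta, showed no called peak in D against A among 10, and none of the 10 had an unadjusted limma p below 0.05. Its log2 changes ran from -0.25 to 0.29. The peak nearest the start held 15.8, 23.9 and 25.4 rppm in D, against 24.1 and 24.2 rppm in A, so the groups overlap and the low value is that of the shallowest library. With the mouse as a block, 2 Pik3cd peaks were called lower. The peak 9.08 kb before the start averaged 25.2 ± 1.62 rppm in D and 30.2 ± 2.02 rppm in A (SD, n = 3 and 2; limma adjusted p = 0.0472 with the block and 0.272 without it). A peak 0.221 kb after the start, named after its values were seen, averaged 54.9 rppm in D and 65.1 rppm in A (adjusted p = 0.0198 with the block and 0.284 without it). edgeR on the recovered reads called no Pik3cd peak.

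Of the regulatory subunits, Pik3r5, the p101 partner of p110-gamma, was less accessible in D at most of its peaks, which reach 32.3 kb into a gene of 65.7 kb. Its intron 1 holds 9 of the 11 peaks, and 8 of those were called lower, together with an intergenic peak 14.2 kb before the gene. The lowest p was that of a peak 4.39 kb inside intron 1 (chr11:68436384-68436643), with 4.62, 3.20 and 4.72 rppm in D and 12.2 rppm in each A library. B had 9.02, 9.73 and 10.5 rppm and C had 5.89, 6.79 and 7.86 rppm, so that the 4 populations did not overlap at this peak. The log2 change of D against A was -1.36 ± 0.18 (limma adjusted p = 0.00013).

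A smaller peak 16.4 kb inside the gene held 1.54, 3.20 and 4.34 rppm in D, against 7.83 and 8.36 rppm in A (-1.24 ± 0.25, limma adjusted p = 0.00416). In D replicate 1, 1 read is worth 0.385 rppm, so its 1.54 rppm rests on few reads, and the call is lost without A replicate 3 (adjusted p = 0.0536). Of the strong intronic peaks, the one at 21.1 kb averaged 28.0 ± 3.16 rppm in D and 56.6 ± 1.34 rppm in A (-0.99 ± 0.13, limma adjusted p = 0.00017). The one at 19.4 kb averaged 42.3 ± 2.75 rppm in D and 68.8 ± 0.80 rppm in A (SD, n = 3 and 2; -0.69, adjusted p = 0.00147). The other 5 called peaks changed by -0.54 to -0.90.

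The peak over the Pik3r5 start site is the most accessible of the gene and moved least. It held 77.4, 80.1 and 78.2 rppm in D, against 91.3 and 92.5 rppm in A, a log2 change of -0.22 ± 0.09 that was not called (limma adjusted p = 0.145). The remaining peak, 1.30 kb before the start, averaged 3.32 rppm in D and 6.47 rppm in A and was called only with the mouse as a block (adjusted p = 0.118 without and 0.00352 with it). At all 11 peaks each D library was below each A library, which holds at 18% of all peaks in the table. Summed over the 11 peaks, Pik3r5 held 342 and 337 rppm in A, 317, 330 and 324 rppm in B, 278, 267 and 264 rppm in C, and 211, 211 and 223 rppm in D, and no population overlapped another. The count of 9 lower calls was 6 without A replicate 1, 6 without A replicate 3 and 3 without mouse 3.

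**Figure D2:**
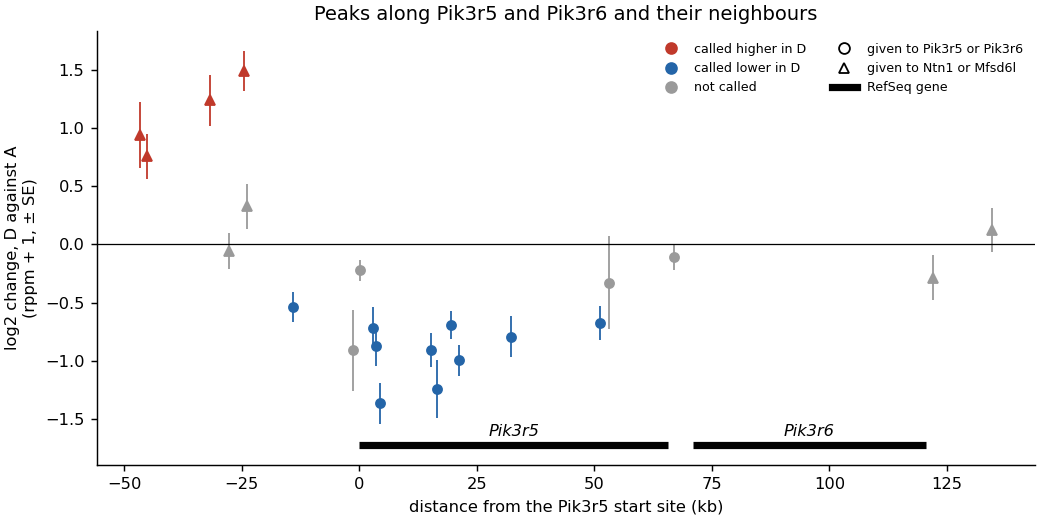
Log2 change of D against A (y axis, of rppm + 1, bars ± SE from limma) for peaks along Pik3r5 and Pik3r6 and their neighbours, by distance from the Pik3r5 start site in kb (x axis). Peaks called lower in D run from 14.2 kb before Pik3r5 to its intron 5, and the peak over its start, at -0.22, stands above them and is not called.

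Pik3r6, the p84 alternative to p101, lies directly after Pik3r5 and has 3 peaks under its name, none within 1 kb of its start. The peak listed 19.6 kb before Pik3r6 (chr11:68483088-68483729) is in intron 5 of Pik3r5, and held 6.55, 7.56 and 8.14 rppm in D, against 13.3 and 11.6 rppm in A (log2 change -0.68 ± 0.15, limma adjusted p = 0.00718). This call is lost without A replicate 1 (adjusted p = 0.109). The peak nearest to the Pik3r6 start, 3.99 kb before it, averaged 20.1 ± 1.61 rppm in D and 21.7 ± 0.44 rppm in A (SD, n = 3 and 2; adjusted p = 0.656), and the D and A libraries overlapped. The remaining peak, also in intron 5 of Pik3r5, was not called (-0.33, adjusted p = 0.708). All 3 peaks carry the Pik3r6 name by distance, so the called one could as well be counted with Pik3r5.

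Pik3r1, which encodes p85-alpha and its shorter forms, moved in both directions. The largest change was at an intergenic peak 14.4 kb before the gene (chr13:101782182-101782984), with 15.4, 11.1 and 12.6 rppm in D and 4.46 and 3.93 rppm in A (log2 change 1.42 ± 0.17, limma adjusted p = 7.95e-05). B had 6.01, 4.81 and 6.42 rppm and C had 7.07, 7.30 and 8.12 rppm, between A and D in every library. D exceeded C at this peak (0.71, limma adjusted p = 0.0138).

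The peak listed 34.1 kb after a start, which lies past the end of the RefSeq gene, held 6.16, 3.49 and 4.18 rppm in D, against 1.85 and 1.41 rppm in A (1.07 ± 0.22, limma adjusted p = 0.00465). Without A replicate 3 this call is lost (adjusted p = 0.0773). A neighbouring peak at 28.3 kb was lower, with 8.86, 8.73 and 9.36 rppm in D and 16.1 and 16.2 rppm in A (-0.78 ± 0.14, limma adjusted p = 0.00149). The peak 29.0 kb before the gene changed by 0.71 and is lost without A replicate 1 (limma adjusted p = 0.00418 and 0.0716). The intron 2 peak listed at 19.6 kb before a start changed by 0.56 with an adjusted p of 0.0478, and that call is lost under most alternatives, among them without A replicate 1 (0.247). The count of Pik3r1 peaks called higher was 2 without A replicate 1, 2 without A replicate 3 and 1 without mouse 3. The Pik3r1 start-site peak did not differ beyond the spread, at 86.2, 85.8 and 79.3 rppm in D, against 88.2 and 78.7 rppm in A (0.01, adjusted p = 0.981). With the mouse as a block 8 Pik3r1 peaks were called in place of 5, 6 higher and 2 lower.

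Pik3ip1, which restrains PI3 kinase at the T cell surface, had no called peak in D against A among 5, and 1 had an unadjusted limma p below 0.05. Its start-site peak held 21.2, 18.8 and 21.7 rppm in D, against 17.8 and 18.6 rppm in A (log2 change 0.16, limma adjusted p = 0.531). The peak with the smallest p, 2.21 kb before the start, held 30.4, 18.3 and 22.8 rppm in D, against 32.7 and 29.4 rppm in A (-0.39 ± 0.18, adjusted p = 0.211). D replicate 1 overlaps A there, and without that library the peak is called lower (adjusted p = 0.0185). Neither limma with the mouse as a block nor edgeR called any Pik3ip1 peak.

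Of the phosphatases, Inpp5d gave a single strong call. A peak of 200 bases, 3.00 kb inside the gene, in intron 1 (chr1:87623213-87623412), held 6.55, 4.65 and 5.54 rppm in D, against 0.544 and 1.01 rppm in A. B had 1.45, 1.49 and 2.24 rppm and C had 1.57, 2.37 and 2.13 rppm. The log2 change of D against A was 1.89 ± 0.21, with the smallest p of any member peak (limma adjusted p = 3.28e-05), and that of D against C was 1.12 (adjusted p = 0.00214). The A values are 15 reads and the D values 253, of which 204 came from D replicate 3. Pooled over libraries, the ratio per scaling total was 6.96, with an exact 95% counting interval of 4.14 to 12.6. The start-site peak averaged 26.2 ± 2.06 rppm in D and 28.8 ± 1.68 rppm in A (SD, n = 3 and 2; -0.13, adjusted p = 0.58). A stronger peak of the same intron, 6.22 kb inside, held 75.9, 47.7 and 48.2 rppm in D, against 54.4 and 55.1 rppm in A. It was not called (0.03, limma adjusted p = 0.956), and its highest value is that of the shallowest library. Summed over its 9 peaks, Inpp5d held 178 to 208 rppm in D and 202 and 196 rppm in A, which overlap. With the mouse as a block 3 Inpp5d peaks were called, 2 higher and 1 lower.

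**Figure D3:**
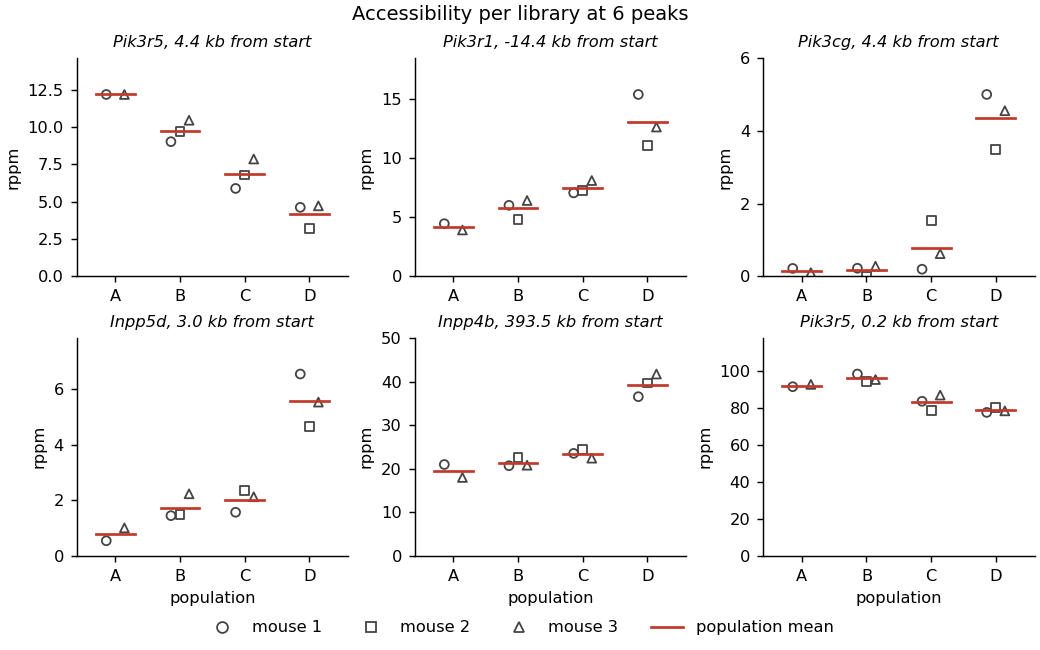
Accessibility in rppm (y axes, from 0) in every library of populations A to D at 6 member peaks, with mice marked by symbol and population means as lines. The Pik3cg and Inpp5d peaks are at 1.01 rppm or less in both A libraries and at 3.49 rppm or more in every D library, the Pik3r5 intron 1 peak is lower in each population than in the one before it, and the Pik3r5 start-site peak (last panel) stays between 77.4 and 98.1 rppm.

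Inpp4b spans 792 kb and had 9 of 38 peaks called higher in D and none lower. The called peaks are spread from the start site to 512 kb inside the gene. The lowest p was at a peak 394 kb inside, in intron 3 (chr8:81735622-81736580), with 36.6, 39.7 and 41.8 rppm in D and 21.0 and 18.0 rppm in A (log2 change 0.98 ± 0.11, limma adjusted p = 5.5e-05). B had 20.7, 22.7 and 20.8 rppm and C had 23.5, 24.4 and 22.4 rppm, so the D libraries stood apart from the other 8.

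Another 3 weaker Inpp4b peaks changed by more than 1 on the log2 scale. In intron 2 at 220 kb, the values were 4.24, 5.24 and 6.29 rppm in D and 1.31 and 1.11 rppm in A (1.49 ± 0.25, limma adjusted p = 0.00119). At 294 kb in the same intron they were 9.63, 17.0 and 12.9 rppm in D and 5.77 and 4.53 rppm in A (1.18 ± 0.28, limma adjusted p = 0.013). At 481 kb, in intron 7, they were 3.47, 3.49 and 3.64 rppm in D and 0.979 and 1.11 rppm in A (1.15 ± 0.19, limma adjusted p = 0.000998). The 294 kb call is lost without A replicate 1 (adjusted p = 0.0529) or A replicate 3 (0.146).

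The start-site peak of Inpp4b, over the promoter printed above, held 43.5, 44.6 and 51.8 rppm in D, against 34.6 and 34.1 rppm in A, with no overlap (log2 change 0.43 ± 0.11, limma adjusted p = 0.0239). The call is lost without A replicate 1 (0.135) or A replicate 3 (0.159). The other 4 called peaks lie at 155, 216, 277 and 512 kb and changed by 0.32 to 0.61. The 29 peaks not called ran from -0.59 to 0.53. Summed over all 38 peaks, Inpp4b held 610, 660 and 665 rppm in D, against 564 and 535 rppm in A. The count of 9 calls was 5 without A replicate 1, 3 without A replicate 3 and 0 without mouse 3.

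**Figure D4:**
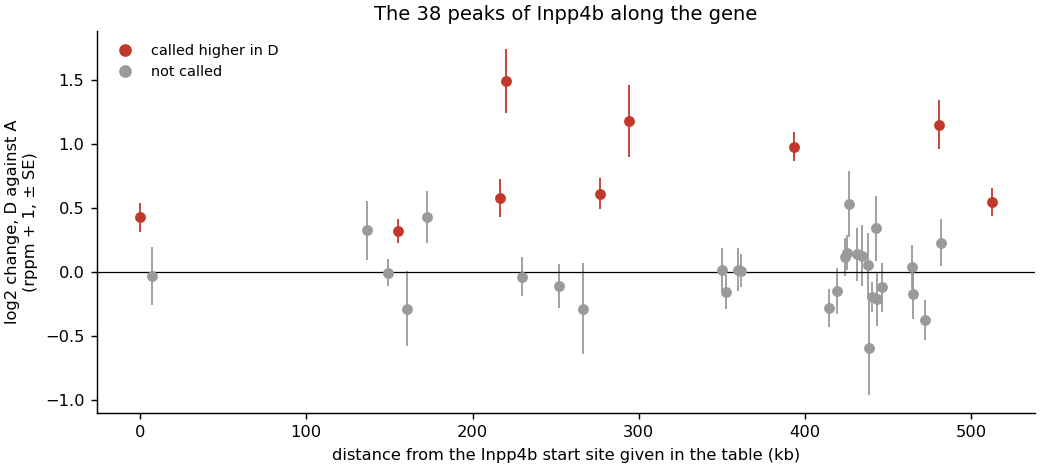
Log2 change of D against A (y axis, of rppm + 1, bars ± SE from limma) for the 38 Inpp4b peaks by distance from the start site given in the table, in kb (x axis). Called peaks (9, all higher in D) are spread over the gene among 29 peaks that were not called, and the largest change, 1.49, is at 220 kb.

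The sorting gates were then compared step by step. D against C, within Ly6C negative cells, gave 13 called member peaks by limma, 10 higher and 3 lower, against a background of 6% (4.51% higher and 1.49% lower). The higher ones were 5 of Inpp4b, 3 of Pik3r1 and 1 each of Pik3cg and Inpp5d, and the 3 lower ones were all Pik3r5 peaks in intron 1. With the mouse as a block the count was 16 higher and 12 lower (background 6.82% and 4.53%), and 9 of the 12 lower peaks were of Pik3r5. B against A and C against B gave no called member peak in limma, with or without the block, nor in edgeR (background 0% and 0.0022%, and 0.0593% and 0.193% with the block), and 4 and 11 member peaks had an unadjusted limma p below 0.05. Over all 4 populations, 24 member peaks differed in the F test (background 9.64%), and 38 with the block (17.5%).

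**Figure D5:**
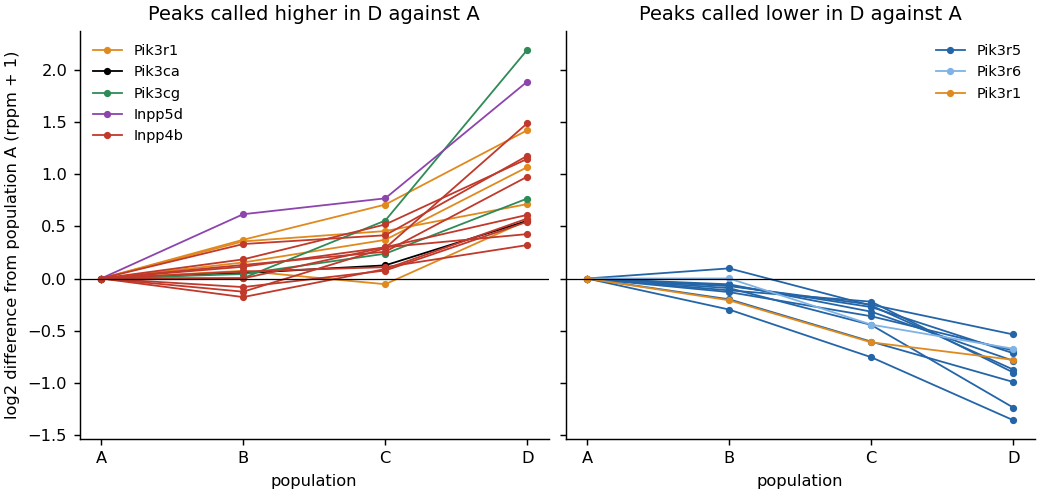
Log2 difference of each population from A (y axis, of rppm + 1) along populations A to D (x axis) for the member peaks called in D against A, with those called higher on the left and those called lower on the right, coloured by gene. The step between C and D is the largest for 15 of 17 peaks on the left and for 8 of 11 on the right.

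The 3 steps add up to the D against A difference by which the 28 peaks were called, so their estimates are given as a description. The median steps of the 17 higher peaks were 0.07 for B against A, 0.19 for C against B and 0.61 for D against C. For the 11 lower peaks they were -0.09, -0.35 and -0.44. The direct test of the D against C step against the B against A step called no member peak (background 0.631%), with 14 member peaks at an unadjusted limma p below 0.05 and no call in edgeR. With the mouse as a block it called 8 (background 2.16%), 5 with a positive and 3 with a negative difference (1.35% and 0.815%). Positive were the Pik3cg intron 2 peak (limma adjusted p = 0.0261) and the Inpp4b peaks at 216, 220 and 394 kb (0.0117, 0.0214 and 0.0292). So was a Pik3r1 peak listed 15.0 kb before a start (0.0313). Negative were the Pik3r5 peak at 3.58 kb (0.0393), a Pik3r1 peak listed 104 kb after a start (0.0164) and an Inpp5d peak 12.8 kb before the start (0.017). These Pik3r1 and Inpp5d peaks were not called in D against A, and are named after their values were seen.

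Other genes of the pathway were counted in the same fit, from 4 lists of 53 genes in all, of which 51 have a peak (Inpp5j and Pik3c2g have none). Of their 257 peaks, 36 were called higher and 10 lower in D against A (background 8.7% and 3.74%). With the mouse as a block 48 were called higher and 21 lower (background 12.5% and 8.79%). Their median log2 change without the block was -0.01, beside a median of -0.04 over all peaks. The brakes downstream of PIP3 held 26 of the 36 higher calls, among 103 peaks (3 lower, median 0.19). These calls lay in 5 of the 12 genes of that list, of which 3 had calls in both directions, and 7 genes had none. Trib1, a pseudokinase, had a peak in an intron of Nsmce2 that averaged 4.68 ± 1.10 rppm in D and 0.256 ± 0.208 rppm in A (SD, n = 3 and 2; limma adjusted p = 6.7e-06). Peaks of Trib2 (4.51 rppm in D and 0.625 in A), Sesn3 (8.87 and 2.61) and the TSC complex subunit gene Tbc1d7 (50.5 and 24.7) were called higher as well. The Trib1 and Trib2 peaks reached 1 rppm in at least 3 libraries only through D, like the Pik3cg intron 2 peak.

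The other phosphatases had 4 peaks called higher and 2 lower among 47 (12.8% called, beside 12.4% of all peaks). Inpp4a, the paralogue of Inpp4b, had a peak with 6.45 ± 1.79 rppm in D and 1.51 ± 0.14 rppm in A (SD, n = 3 and 2; log2 change 1.54, limma adjusted p = 0.000358), and Synj2 one, in an intron of Snx9, that changed by 0.70. Inpp5a had a peak called lower, with 3.20 rppm in D and 6.26 rppm in A. Among PIP3-binding and downstream kinases, 6 of 69 peaks were called higher and 3 lower (background 8.7% and 3.74%). With the mouse as a block these counts were 7 and 11 (background 12.5% and 8.79%). An intronic peak of Tec, a kinase that binds PIP3, averaged 12.5 ± 1.49 rppm in D and 2.61 ± 0.30 rppm in A (SD, n = 3 and 2; 1.91, limma adjusted p = 8.79e-06), and peaks of Rptor, Sgk1 and Sgk3 changed by 1.08, 1.05 and 0.78. Of 38 peaks of other PI3 kinase subunits and adaptors, none was called higher and 2 lower (5.26% called), both of Trat1. The one with the smaller p averaged 6.67 rppm in D and 10.9 rppm in A. With the block 2 of the 38 peaks were called higher and 5 lower (background 12.5% and 8.79%). The higher ones were peaks of Pik3ap1 and Gab2 (limma adjusted p = 0.0291 and 0.0471). A Pik3c2a peak, with 5.50 rppm in D and 3.90 rppm in A, was called in neither fit (limma adjusted p = 0.163 without the block).

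Peaks that followed the same course over the 11 libraries were looked up for the largest increase and the largest decrease. The peaks most like the Pik3cg intron 2 peak were given to Ncoa2 (Pearson r = 0.990), Sgip1 (0.986), D5Ertd579e (0.983), Tbc1d31 (0.982) and Miga1 (0.979). Those most like the Pik3r5 peak at 4.39 kb were given to Zfp750 (0.987), Ubac1 (0.979), Lclat1 (0.973), Lrch1 (0.973) and Cers6 (0.971). These are the highest of many correlations over libraries that share mice and depths, and are given as a description.

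Markers of T cells and of other cells were read in the same libraries. Of the 67 peaks of T cell genes summed above, 3 were called higher in D against A, all at Cd5. Another 2 were called lower, at Cd3e and Cd4. Of 31 peaks of 6 regulatory T cell genes, 9 were called higher and 3 lower in D against A in limma (background 8.7% and 3.74%). The higher calls lay at Il2ra and Ikzf2 and the lower ones at Il2ra. Foxp3, Ikzf4, Tnfrsf18 and Itgae have peaks, and none was called. Summed over the 31 peaks, the 6 genes held 352 and 360 rppm (A), 346 to 361 rppm (B), 348 to 365 rppm (C) and 387 to 408 rppm (D). Their part in the member results was not tested. The myeloid list, with peaks at 6 of 8 genes, had 2 of 22 peaks higher and 3 lower, with sums of 233 to 283 rppm in D and 289 and 315 in A. CD8 T and NK cell genes, with peaks at 7 of 8 genes, had 3 of 27 higher and 3 lower, with sums of 512 to 597 rppm in D and 561 and 580 in A. B cell genes had none of 11 peaks called, with 153 to 200 rppm in D and 193 and 199 in A.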

How the data were processed

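ATAC-seq peaks of 11 libraries were analysed from 1 deposited table, on the mm10 build. The authors deposited RPM values, called rppm per the file headers. Bowtie and MACS2 are named in the submitters' processing notes. Their settings, read filters, peak merging and the scaling total are not given in the sources used here. The values of a library step by what 1 read is worth (100% of them to within 6e-04 rppm), from which reads and scaling totals were recovered. Reads carry no molecular identifiers, so read numbers and intervals cover counting error only. No listed peak was filtered out here, but all 45508 peaks of the deposited table reach 1 rppm in at least 3 libraries. Population A has 2 libraries and D has 3. A peak open in D alone can therefore be in the list, and a peak open in A alone is not. What this does to the counts of higher and lower peaks was not tested.

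limma 3.58.1 (R 4.3.3) was fitted with a trend to log2(rppm + 1) of the whole table, with 1 mean per population and no mouse term. Tests were two-sided, and in each contrast Benjamini-Hochberg adjustment ran over 45508 peaks (threshold 0.05). The fit was tested on simulated data. edgeR 4.0.16 (quasi-likelihood test) on recovered reads, a mouse block, other pseudocounts, scaling and filters, and left-out libraries were the alternatives. The labels give each library's mouse. Deviations from the population means correlated at 0.183 to 0.556 in 15 pairs from 1 mouse and at -0.433 to 0.203 in 30 pairs from different mice. Named are, per member gene, the peak nearest a start, the peak with the smallest p in D against A, and called peaks with a log2 change of at least 1 in size. Per pathway list they are up to 4 genes with the smallest p, and 1 of these is not reported here. Other called member peaks are named in addition. The members and lists were chosen with earlier results of these data known. Gene spans and promoter sequences are from RefSeq (GRCm38.p6), and all 9 gene identifiers matched it.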

Additional observations from a re-analysis of the deposited data

How the results depend on the processing

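Of the 28 member peaks called in D against A, none changed direction under any of the 20 alternatives, and 6 stayed called in all that gave them a value (Pik3r5 at 4.39, 15.3 and 21.1 kb, Pik3r1 at 14.4 kb before the gene, Pik3cg at 4.44 kb and Inpp5d at 3.00 kb), of which the Pik3cg and Inpp5d peaks average under 5 rppm and had no value under that filter, so they were tested in 19. The number that stayed called was 27 with a pseudocount of 0.25, 28 with 5, 27 with median-of-ratios scaling, 28 in edgeR, 22 of the 22 that average 5 rppm or more, 21 with only the A and D libraries, 14 with reads thinned to the smallest library and 6 without mouse 3. Leaving out 1 library kept 15 to 28, with 16 without A replicate 1 and 15 without A replicate 3, where A rests on 1 library that is assumed to vary like the other populations.

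The counts moved as follows. Higher calls in D against A (17) were 11 with a mean of at least 5 rppm, 8 with thinned reads, 3 without mouse 3 and 7 to 17 with 1 library left out. Lower calls (11) were 6 with thinned reads, 3 without mouse 3 and 7 to 12 with 1 library left out. In D against C the higher calls (10) were 4 with a mean of at least 5 rppm, 3 with thinned reads, 0 without mouse 3, 16 with the replicate block and 6 to 10 with 1 library left out. The lower calls (3) were 0 with thinned reads, 0 without mouse 3, 12 with the replicate block and 1 to 5 with 1 library left out. Any difference (24) gave 38 with the replicate block, 12 with thinned reads and 2 without mouse 3. The test of the D against C step against the B against A step (0) gave 8 with the replicate block, 2 with a pseudocount of 5, 1 with median-of-ratios scaling and 0 to 1 with 1 library left out. Fewer reads, peaks or libraries entered the thinned, filtered and left-out fits by their construction, and the cause of the other differences was not tested. The mouse block ended no call of a member peak in D against A. Depth limits the weakest peaks most, since 1 read is worth 0.385 rppm in D replicate 1 and 0.0271 rppm in D replicate 3.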

Other observations

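Peaks listed under other genes, but close to or inside the members, were read in the same fit and named after their values were seen. In the 50 kb before Pik3r5, 6 peaks are given to Ntn1, which encodes the guidance protein netrin-1. Of these, 4 were called higher in D against A (background 8.7%), beside the lower calls of Pik3r5. The strongest of these changes was at a peak 20.7 kb before Ntn1, with 9.24, 8.58 and 10.0 rppm in D and 2.72 and 2.62 rppm in A (log2 change 1.49 ± 0.17, limma adjusted p = 5.62e-05). The other 3 changed by 1.24, 0.94 and 0.76. The change of 0.94 was close to the threshold (limma adjusted p = 0.0435), with 5.39, 9.74 and 9.96 rppm in D and 3.48 and 4.03 rppm in A. Fits with libraries left out are not reported for the Ntn1 peaks. The last Ntn1 peak and the first Pik3r5 peak are 8.88 kb apart. On the far side, past Pik3r6, the 2 peaks given to Mfsd6l were not called (-0.28 and 0.12).

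Inside Inpp4b, 2 further peaks carry the name of Il15, the cytokine gene that follows it. The peak in intron 8 held 7.70, 10.5 and 9.66 rppm in D and 1.41 and 3.22 rppm in A (log2 change 1.68 ± 0.23, limma adjusted p = 0.000216). The peak in intron 17 averaged 6.12 ± 0.14 rppm in D and 5.58 ± 0.51 rppm in A (SD, n = 3 and 2; 0.12, adjusted p = 0.733). Inside Pik3cd, an intron 8 peak listed under Mir7023 averaged 54.0 ± 9.13 rppm in D and 59.5 ± 4.80 rppm in A (SD, n = 3 and 2; -0.15, adjusted p = 0.609).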
